A study of Mus musculus with 12 samples.

Results

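The RGS (regulator of G protein signalling) genes were followed in effector cytotoxic T lymphocytes (CTL). The rows were chosen by gene symbol, and all of Rgs1, Rgs2, Rgs3, Rgs10, Rgs14, Rgs16 and Rgs19 were present, which made 7 of the 11022 genes in the table. A further 5 genes with an RGS symbol (Rgs8, Rgs9, Rgs11, Rgs12 and Rgs18) were also present and served as a comparison.

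Chemokine and other seven-helix receptors signal by loading the alpha subunit of a heterotrimeric G protein with GTP, which frees it from the beta and gamma subunits. RGS proteins bind the active alpha subunit and speed up its hydrolysis of GTP, so that the G protein returns to its resting form and the receptor signal ends. In lymphocytes several RGS proteins are known to restrain migration towards chemokines.

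RNA sequencing was used to measure mRNA in CTL from female P14 mice, 9 to 13 weeks old, whose T cells carry a transgenic T cell receptor (TCR) for the LCMV peptide gp33–41. Each of the 4 groups held 3 biological replicates, whose cultures were started from lymph node or spleen cells of 3 mice. Every culture, unstimulated ones included, had first been activated for 48 h with peptide, IL-2 and IL-12. It was then expanded for 5 days in IL-2 at 20 ng/mL. On day 7 it was rested for 1 h in medium that again held IL-2 at 20 ng/mL. Peptide was added to that medium, so all 12 samples were in IL-2, and DMSO was the vehicle control. The groups were CTL left unstimulated, CTL given gp33–41 at 100 ng/mL for 4 h (TCR), CTL given peptide with 10 µM IC87114, an inhibitor of the PI3K catalytic subunit p110δ (PI3Kdi), and CTL given peptide with 2 µM PD184252, an inhibitor of the kinase MEK (MEKi). All 12 samples carry the same receptor, no group received an inhibitor without peptide, and a drug effect here is the effect of 1 compound at 1 dose and 1 time.

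All values below are FPKM, the fragments on a gene scaled to its exon length and to a library size adjusted by the TMM method, as deposited, so they can be compared between genes as well as between samples. Log2 fold changes are differences of log2(FPKM + 0.1), given with the standard error (SE), and adjusted p is from limma over all 11022 genes with Benjamini-Hochberg correction. A gene was called changed when adjusted p was under 0.05 and the difference was over 2-fold. The steps between low values put the effective depth at 7870000 to 13290000 fragments per sample. All 7 CD8 T cell markers examined (Cd8a, Cd8b1, Cd3e, Cd3d, Cd3g, Gzmb and Prf1) were in the table, and none of the 5 B cell or 6 myeloid markers was. Of 5 dendritic cell markers 3 were present (Zbtb46, Itgax and Cd74), and Flt3 and H2-Aa were not among the rows. Their summed FPKM was 1.16 to 2.4 in unstimulated CTL, 10.8 to 11.8 with TCR, 4.11 to 5.42 with PI3Kdi and 6.30 to 8.97 with MEKi. The sum thus moved with the peptide, as some RGS genes did, but through Zbtb46 and Cd74 and not Itgax. In the same order of groups Zbtb46 had means of 0.03, 3.49, 1.97 and 3.11 FPKM. Cd74 had 1.35, 7.22, 2.25 and 4.13, and Itgax had 0.41, 0.53, 0.58 and 0.41. The part of these genes in the RGS results was not tested. Among the other lists, the 1 NK marker present (Klrb1c, of 3) had 4.58 to 6.23 FPKM in unstimulated CTL and 1.63 to 1.88 with TCR, the 2 CD4 markers present (of 3) summed to 5.27 to 11.3 over all samples but moved apart, and the 1 platelet marker present (Itga2b, of 6) stayed at or under 0.50. Of the CD4 markers, Cd4 had a mean of 0.77 FPKM in unstimulated CTL, 2.69 with TCR, 2.94 with PI3Kdi and 0.45 with MEKi, and Zbtb7b had 7.37, 5.29, 3.92 and 9.95 in the same order. The order of the Cd4 means in the 3 peptide-treated groups is that of Rgs2, though TCR and PI3Kdi samples of Cd4 overlap, and its part in those results was not tested.

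Of the 7 genes, Rgs1, Rgs2, Rgs3 and Rgs16 belong to the R4 family of small RGS proteins, and 3 of these rose most of the 7. A rise was not shared by the whole R4 family. Of the comparison genes, Rgs18 and Rgs8 belong to it too. With peptide Rgs18 fell (log2 -2.65) and Rgs8 was not called (log2 0.68). The sequences before the annotated start sites of Rgs2, Rgs16 and Rgs3 are shown because these genes were the ones whose level moved most with the peptide or with MEKi among those with an entry in the RefSeq promoter table. That table matched 5 of the 7 genes. Rgs1 and Rgs14 had no entry. Each run is 250 bases ending at the base before the start site, 5′ to 3′ on the gene's strand, in GRCm38.p6, and capitals mark a match to any motif searched. Rgs2 lies on the minus strand at chr1:144004150-144004399, Rgs16 on the plus strand at chr1:153740103-153740352, and Rgs3 on the plus strand with an outer start (chr4:62559597-62559846) and an inner start (chr4:62619422-62619671).
Rgs2: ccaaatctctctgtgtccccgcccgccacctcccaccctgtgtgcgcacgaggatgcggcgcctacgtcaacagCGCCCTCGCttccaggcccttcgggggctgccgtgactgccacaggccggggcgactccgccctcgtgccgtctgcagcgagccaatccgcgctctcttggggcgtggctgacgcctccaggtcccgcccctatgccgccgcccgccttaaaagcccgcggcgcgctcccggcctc
Rgs16: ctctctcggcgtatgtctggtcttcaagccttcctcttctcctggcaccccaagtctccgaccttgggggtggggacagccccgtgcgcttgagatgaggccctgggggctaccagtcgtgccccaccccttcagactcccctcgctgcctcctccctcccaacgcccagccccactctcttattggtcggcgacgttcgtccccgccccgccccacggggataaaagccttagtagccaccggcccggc
Rgs3, outer start: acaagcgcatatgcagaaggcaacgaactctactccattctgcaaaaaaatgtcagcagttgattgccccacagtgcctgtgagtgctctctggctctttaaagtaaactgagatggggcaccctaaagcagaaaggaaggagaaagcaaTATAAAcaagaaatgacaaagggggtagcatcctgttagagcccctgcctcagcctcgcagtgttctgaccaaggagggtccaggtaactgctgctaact
Rgs3, inner start: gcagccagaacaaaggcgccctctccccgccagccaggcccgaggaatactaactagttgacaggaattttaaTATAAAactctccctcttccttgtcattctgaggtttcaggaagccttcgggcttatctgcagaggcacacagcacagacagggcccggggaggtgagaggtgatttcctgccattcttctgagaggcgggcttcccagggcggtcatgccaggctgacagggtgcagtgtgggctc

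Both strands were searched for AP-1 (TGANTCA), CRE (TGACGTCA), NFAT (GGAAAA), EGR (GCGNGGGCG), FOXO (GTAAACA), the TATA box (TATAAA), the NF-kappaB motif and the CArG box. The Rgs2 run held 1 EGR match, on the opposite strand and starting 176 bases before the start site, against 4.70% of 32851 promoter windows of the same length. An EGR match was not particular to Rgs2. Rgs19, whose runs are not shown and whose level fell with peptide, had one 98 bases before a start site. It also had an NFAT match 187 bases before another start site. Each Rgs3 run held 1 match to the letters TATAAA, at 100 bases before the outer and 177 bases before the inner start, against 12.4% of windows. Whether these letters act as a TATA box for either start was not tested. The Rgs16 run held no exact match to any motif searched, which does not show that it lacks related sequences. AP-1 matches were found in 6.75% of windows, CRE in 1.55%, NFAT in 20.4%, FOXO in 3.17%, NF-kappaB in 7.25% and CArG boxes in 1.47%. The G and C content was 72.4% before Rgs2 and 66.4% before Rgs16, with a median of 52.4% over all windows. The windows behind the percentages were not matched to the genes for this content.

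To show what antigen does to the family, CTL given peptide were compared with unstimulated CTL. Rgs1, Rgs16 and Rgs2 rose 16.1-fold, 32.7-fold and 23.8-fold, Rgs14 fell 2.13-fold, and the other members stayed within 2-fold. Thus 4 of the 7 genes were called (3 higher and 1 lower), and of all genes 20% were called, 8.87% higher and 11.1% lower. The samples of the groups did not overlap for 6 of the 7, against 71.2% of all genes. The rises of Rgs16, Rgs2 and Rgs1 ranked 63, 89 and 119 among the 11022 genes. The median log2 fold change of the 7 was 0.87, and that of all genes was -0.01.

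Rgs16, which acts on Gi and Gq alpha subunits, had 25.6, 29.8 and 30.7 FPKM in unstimulated CTL and 935, 950.2 and 929.8 with TCR. No sample of one group came near the other, and the log2 fold change was 5.03 (SE 0.06, limma adjusted p = 3.19e-17). With PI3Kdi the gene had 822, 784 and 779 FPKM, and with MEKi 500.4, 545 and 507. Both drugged groups lay wholly below the TCR samples and far above the unstimulated ones. The gene shares 236 exon bases with the antisense gene Gm28513, and 6.29% of its 100-base transcript stretches occur in it. Whether the counting used the strand is not given in the sources used here, so reads of the pair cannot be told apart there.

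Rgs1, known as a brake on chemokine-driven movement of lymphocytes, had 62.1, 48.8 and 62.6 FPKM without peptide and 916, 965 and 899 with it. The groups did not overlap, and the log2 fold change was 4.01 (SE 0.08, limma adjusted p = 4.49e-15). It had 872, 882 and 854 FPKM with PI3Kdi, just under the lowest TCR sample, and 643, 628 and 612 with MEKi, under all of those. Together Rgs16 and Rgs1 carried most of the RGS signal of peptide-stimulated CTL: their shares of the summed FPKM of the 7 genes were 47.7% ± 0.57 and 47.1% ± 0.66 (SD, n = 3).

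Rgs2, which favours Gq alpha subunits, was the lowest of the 7 genes in unstimulated CTL, at 0.74, 0.54 and 0.88 FPKM. At the estimated depths, and if its longest annotated coding transcript (3.02 kb) is the length to use, these are about 17 to 35 fragments per sample, so the base of its fold change rests on few fragments. With TCR it had 21.2, 19.8 and 16.7 FPKM, with no overlap, and the log2 fold change was 4.57 (SE 0.14, limma adjusted p = 7.30e-13). The ratio of the mean FPKM was 26.7, above the 23.8-fold of the log2(FPKM + 0.1) scale, which understates the change of low genes; with a pseudocount of 1 the log2 fold change was 3.55. With PI3Kdi it had 33.6, 28.9 and 26.1 FPKM, all higher than any TCR sample, and with MEKi 9.02, 8.68 and 8.18, all lower.

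Rgs3, a larger member of the R4 family, had 12.8, 13.7 and 11.6 FPKM without peptide and 23.3, 23.7 and 22.5 with it. The groups were apart but the difference was under 2-fold (log2 0.87, SE 0.07, limma adjusted p = 6.83e-08), and was 0.46 on a common FPKM sum. It had 21.0, 19.2 and 20.3 FPKM with PI3Kdi, which lay below the TCR samples, and 11.8, 12.4 and 11 with MEKi, which overlapped the unstimulated samples. The table gives 1 value per gene, so transcripts from the 2 starts shown above cannot be told apart, and 9.25% of its 100-base stretches also occur in Gm5763.

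The R12 family holds Rgs14 and Rgs10. Rgs14, which carries a GoLoco motif that binds inactive Gi alpha beside its RGS domain, was the one member called lower. It had 24.6, 23.4 and 22.2 FPKM in unstimulated CTL and 11.5, 10.7 and 10.6 with TCR. The groups did not overlap and the level was 2.13-fold lower (log2 -1.09, SE 0.06, limma adjusted p = 1.09e-09). A limma test against a 2-fold change did not call it (adjusted p = 0.638). With PI3Kdi it had 13.1, 13.8 and 13.2 FPKM and with MEKi 12.6, 13.04 and 13.05, so that both drugged groups lay between the TCR and the unstimulated samples.

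Rgs10, a small protein that is little more than an RGS domain, had 9.06, 6.80 and 8.35 FPKM without peptide and 7.61, 7.14 and 6.41 with it. These ranges overlap, and the log2 difference was -0.19 (SE 0.14, 95% interval -0.49 to 0.12, limma adjusted p = 0.266). On a common FPKM sum, where the median of all genes was -0.41, it was -0.59 (limma adjusted p = 0.000753). It had 9.83, 7.04 and 6.39 FPKM with PI3Kdi, the widest spread relative to its mean of any group and member above 1 FPKM, and 4.93, 4.90 and 5.38 with MEKi, below every other sample.

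Rgs19, also called GAIP, belongs to the RZ family, whose members carry a run of cysteines near the amino terminus. It had 55.7, 56.9 and 56.3 FPKM in unstimulated CTL and 44.1, 38.1 and 39.5 with TCR, without overlap. The difference was inside 2-fold (log2 -0.47, SE 0.07, limma adjusted p = 1.60e-05), and was -0.89 on a common FPKM sum. With PI3Kdi it had 42.7, 39.9 and 39.5 FPKM, within the TCR range, and with MEKi 46.0, 48.6 and 53.6, between the TCR and the unstimulated samples. In these bulk samples fewer cells that express a gene and less RNA per cell cannot be told apart.

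**Figure D1:**
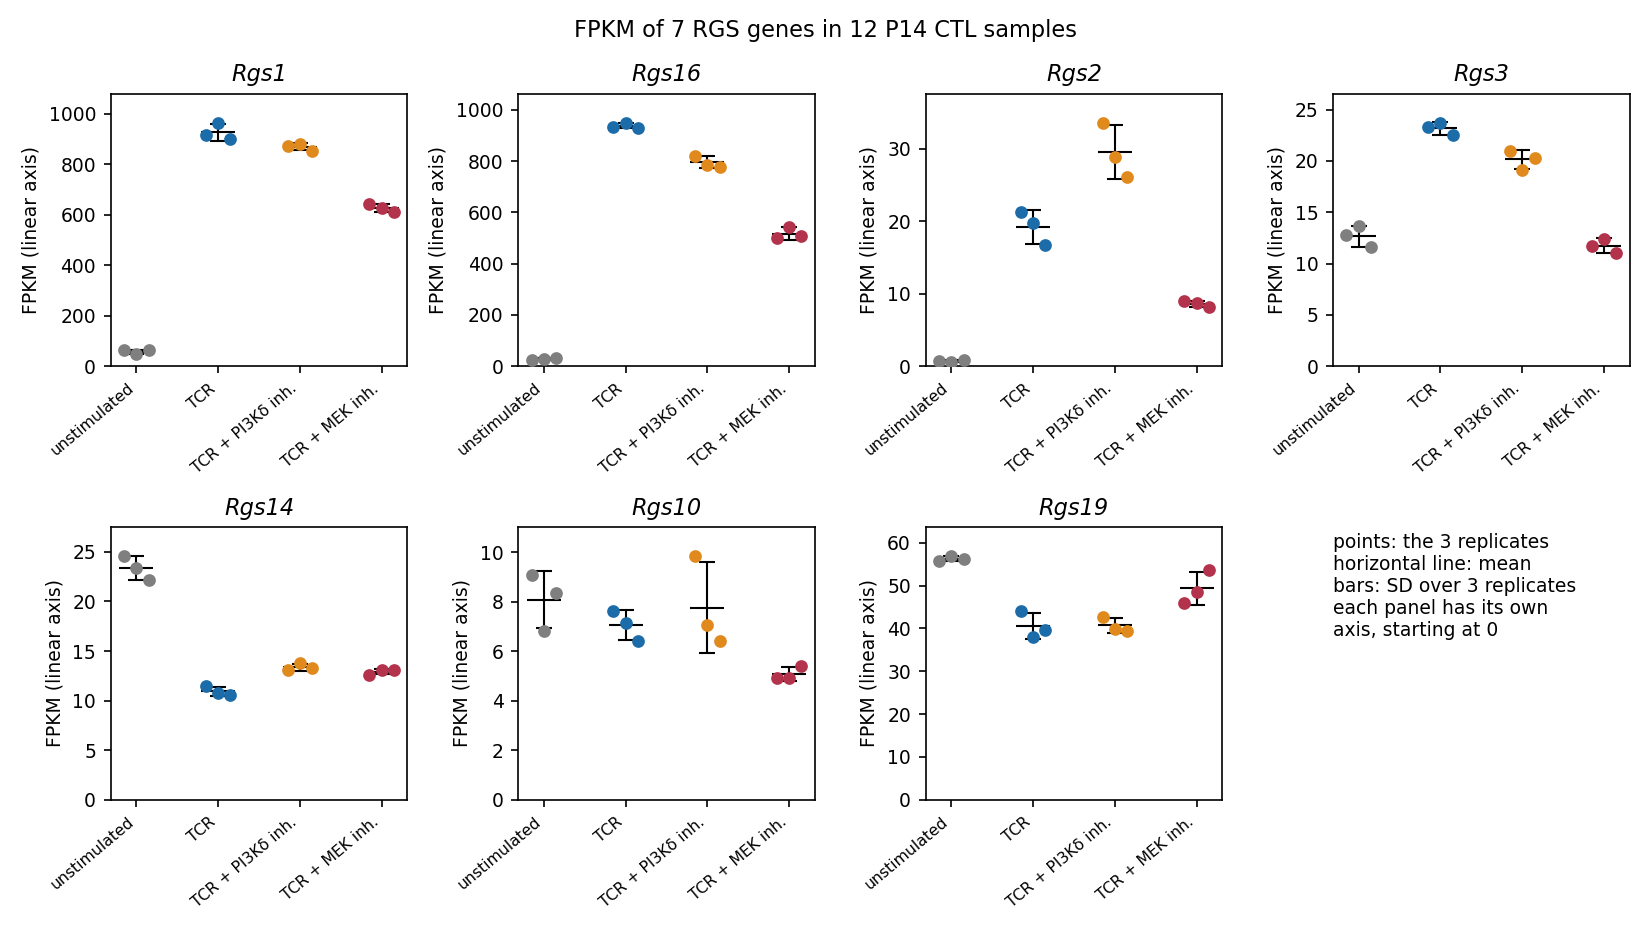
FPKM of the 7 RGS genes (vertical axes, linear and starting at 0, 1 scale per panel) in the 4 groups, with the 3 replicates as points, the mean as a line and the SD as bars. Rgs1 and Rgs16 are at 899 FPKM or more in every TCR sample and at 62.6 or less in every unstimulated one; Rgs2 is highest with PI3Kdi, and Rgs14 is highest without peptide.

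The order of the levels changed with the peptide. In unstimulated CTL Rgs1 (57.8 ± 7.86, SD, n = 3) and Rgs19 (56.3 ± 0.57) came first and overlapped. Rgs16 (28.7 ± 2.75), Rgs14 (23.4 ± 1.20), Rgs3 (12.7 ± 1.04), Rgs10 (8.07 ± 1.16) and Rgs2 (0.72 ± 0.17) followed, with no overlap between neighbours in that order. With TCR the first 2 were Rgs16 (938 ± 10.6) and Rgs1 (927 ± 33.9), whose samples overlapped, and Rgs19 had passed from the second to the third place at 40.6 ± 3.13. Rgs3 (23.2 ± 0.63), Rgs2 (19.2 ± 2.31), Rgs14 (10.9 ± 0.48) and Rgs10 (7.05 ± 0.60) followed, again without overlap between neighbours. Rgs2 stood between Rgs19 and Rgs3 with PI3Kdi (29.5 ± 3.76) and between Rgs3 and Rgs10 with MEKi (8.63 ± 0.42). The summed FPKM of the 7 genes was 188 ± 6.89 in unstimulated CTL, 1966 ± 45.2 with TCR, 1776 ± 37.7 with PI3Kdi and 1233 ± 25.5 with MEKi.

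**Figure D2:**
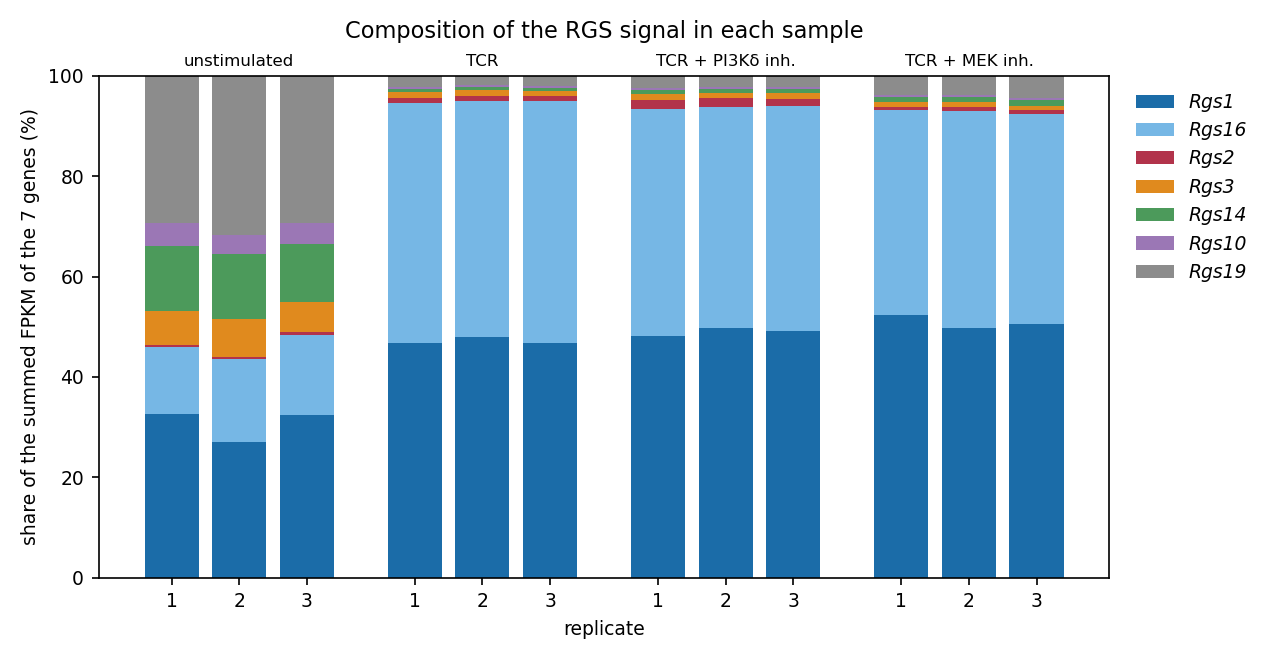
Share of each gene in the summed FPKM of the 7 RGS genes (vertical axis, percent) in each of the 12 samples (1 bar per replicate, grouped by condition). Rgs19 holds 30.05% on average without peptide and 2.07% with TCR, where Rgs1 and Rgs16 take nearly all of the signal.

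To ask whether p110δ contributes to these levels, CTL given peptide with PI3Kdi were compared with CTL given peptide alone. None of the 7 genes was called, against 1.88% of all genes, while the samples of the groups did not overlap for 5 of the 7, against 37.6%. Rgs2 was higher by a log2 value of 0.62 (SE 0.14, 95% interval 0.31 to 0.92, limma adjusted p = 0.00541), or 1.53-fold, with each PI3Kdi sample above each TCR sample. Rgs14 (log2 0.29, SE 0.06, limma adjusted p = 0.00448) and Rgs16 (log2 -0.24, SE 0.06, limma adjusted p = 0.0139) also passed on p but were well inside 2-fold. Passing on p alone was the case for 25.6% of all genes. The log2 differences of Rgs3 (-0.20, limma adjusted p = 0.0577), Rgs1 (-0.09, 95% interval -0.26 to 0.08), Rgs10 (0.11, -0.19 to 0.42) and Rgs19 (0.01, -0.14 to 0.15) did not pass. Those of Rgs16 and Rgs3 shrank to -0.06 and -0.02 when each sample was scaled to a common FPKM sum, and that of Rgs1 turned to 0.09. On that scale Rgs14 stood at 0.47, Rgs10 at 0.29 and Rgs19 at 0.19, with the median of all genes at 0.19.

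MEKi was compared with peptide alone in the same way, and the same TCR samples serve as the control of both drugs. Rgs2 fell 2.20-fold (log2 -1.14, SE 0.14, 95% interval -1.44 to -0.84, limma adjusted p = 2.58e-05). It was the 1 member called, against 3.49% of all genes, 2.51% lower and 0.98% higher. All 7 genes had an adjusted p under 0.05, against 37.1% of all genes, and 5 of them were lower and 2 higher, against 18.2% and 18.9%. None of the 7 overlapped between the groups, against 48.8% of all genes without overlap. Rgs3 was nearest to the threshold, with a log2 value of -0.98 (SE 0.07, limma adjusted p = 1.91e-07), and it passed 2-fold once MEKi replicate 2 was left out (-1.02). Over 22 alternative settings Rgs3 ranged from -1.02 to -0.72, and Rgs16 from -0.90 to -0.60. Rgs16 (log2 -0.86, SE 0.06, limma adjusted p = 1.91e-07), Rgs1 (log2 -0.56, SE 0.08, limma adjusted p = 7.46e-05) and Rgs10 (log2 -0.47, SE 0.14, limma adjusted p = 0.0201) lay inside 2-fold, each with every MEKi sample below every TCR sample. Rgs19 (log2 0.28, SE 0.07, limma adjusted p = 0.00434) and Rgs14 (log2 0.24, SE 0.06, limma adjusted p = 0.00997) were higher, also inside 2-fold. The call of Rgs2 was lost when samples were scaled to a common FPKM sum (log2 -0.88), a scale on which the median of all genes itself stood at 0.26, and in a limma test against a 2-fold change (adjusted p = 1). On the common sum Rgs1 stood at -0.30, Rgs10 at -0.21 (limma adjusted p = 0.192), Rgs14 at 0.50 and Rgs19 at 0.54. Rgs1 was at -0.29 with quantile normalisation. The adjusted p of Rgs10 also rose to between 0.0501 and 0.0697 when TCR replicate 1 or 2 or MEKi replicate 1 or 2 was left out.

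**Figure D3:**
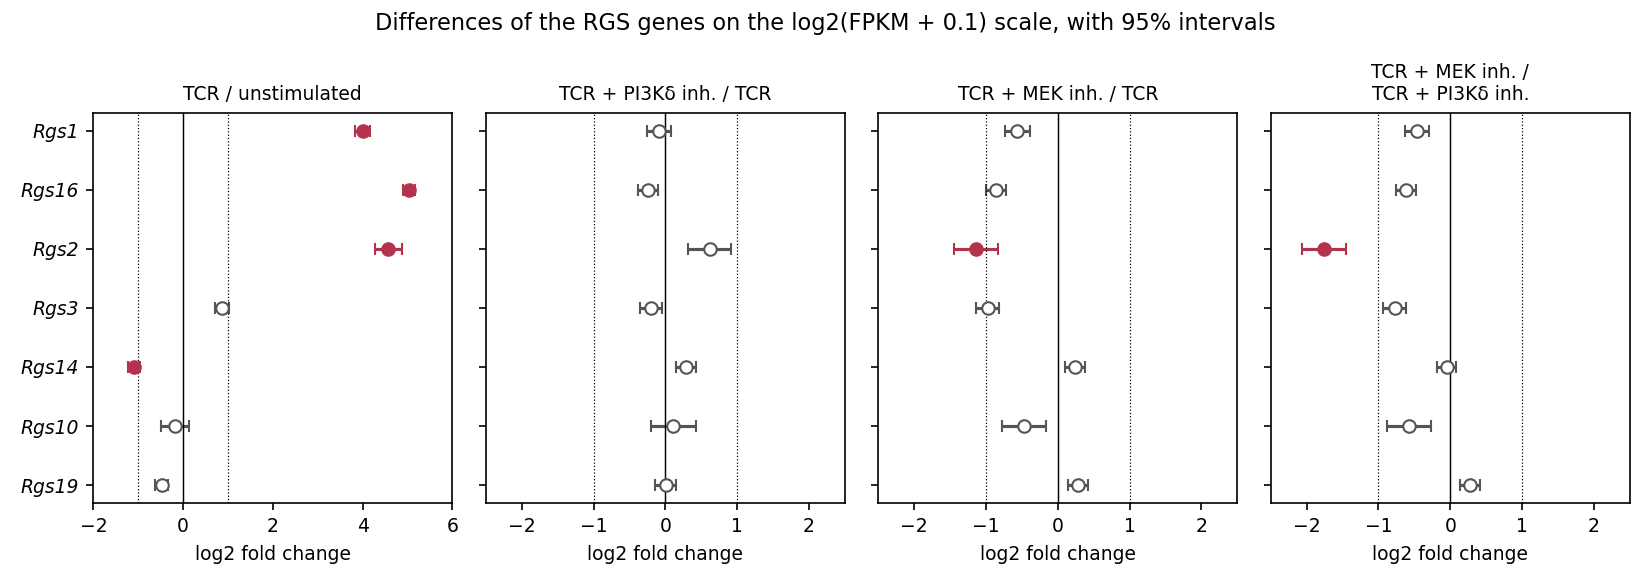
Log2 fold changes of the 7 RGS genes on the log2(FPKM + 0.1) scale (horizontal axes) with 95% intervals, for 4 comparisons, where filled points passed adjusted p under 0.05 and over 2-fold and dotted lines mark 2-fold. The first panel has a wider axis; Rgs2 is the 1 gene whose point is filled in the last 2 panels, at -1.14 and -1.76.

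The effects of the drugs were set against each other directly. Rgs2 was 3.38-fold lower with MEKi than with PI3Kdi (log2 -1.76, SE 0.14, 95% interval -2.06 to -1.45, limma adjusted p = 4.32e-07). It was again the 1 member called, against 3.09% of all genes, 1.71% lower and 1.39% higher. Rgs3 (log2 -0.78, limma adjusted p = 2.37e-06), Rgs16 (log2 -0.62, limma adjusted p = 5.86e-06), Rgs10 (log2 -0.58, limma adjusted p = 0.00717) and Rgs1 (log2 -0.47, limma adjusted p = 0.000392) were lower with MEKi and inside 2-fold. Rgs19 was higher (log2 0.28, limma adjusted p = 0.00616). For Rgs14 the difference between the drugs was -0.05 with a 95% interval of -0.19 to 0.09.

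With either drug the peptide-induced genes stayed far above their unstimulated level. With MEKi, Rgs16, Rgs1 and Rgs2 were 18.03-fold, 10.9-fold and 10.8-fold above unstimulated CTL, and with PI3Kdi 27.7-fold, 15.1-fold and 36.5-fold. These 3 were the members called in each of those comparisons, all higher, against 13.4% of all genes with MEKi (6.95% higher and 6.46% lower) and 14.6% with PI3Kdi (7.16% higher and 7.43% lower). In FPKM, MEKi left 65.6% of the difference that the peptide made in Rgs1 (63.7 to 67.4% over the 3 MEKi samples, each set against the group means). It left 53.7% in Rgs16 (51.9 to 56.7%) and 42.7% in Rgs2 (40.3 to 44.9%). PI3Kdi left 93.4% in Rgs1, 84.2% in Rgs16 and 156% in Rgs2 (137 to 178%). Rgs3 with MEKi differed from unstimulated CTL by a log2 value of -0.11 (95% interval -0.27 to 0.05, limma adjusted p = 0.219), and by -0.26 on a common FPKM sum (limma adjusted p = 0.01455). Rgs14 stayed below unstimulated CTL with both drugs, by log2 values of -0.80 with PI3Kdi and -0.85 with MEKi, inside 2-fold on the deposited scale and just past it (-1.03 and -1.002) on a common FPKM sum.

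Over the 12 samples the genes with the pattern most like a member were found by Pearson correlation of log2(FPKM + 0.1) among 9898 other genes with a mean of at least 1 FPKM. These are descriptions, and the samples share 4 group means. For Rgs16 they were Chst2 (r = 0.999), Sla (0.999) and Crtam (0.999), and for Rgs1 they were the chemokine gene Ccl3 (0.999), Nrp1 (0.998) and Agfg1 (0.998). Ccl3 had a mean of 5.76 FPKM in unstimulated CTL, 19074 with TCR, 13385 with PI3Kdi and 7064 with MEKi, so a high r does not mean an equal size. For Rgs2 they included Btg1 (0.994) and Gpr174 (0.993), the latter a G protein coupled receptor. Gpr174 had 2.89, 14.3, 17.5 and 8.99 FPKM in unstimulated, TCR, PI3Kdi and MEKi CTL, an order of groups equal to that of Rgs2. For Rgs3 they were Gem (0.986), Pip4k2c (0.985) and Ptk2b (0.982), for Rgs14 Zfp652 (0.992), Mcmbp (0.990) and Pik3cg (0.989), for Rgs19 Jmjd8 (0.979), Cenpb (0.977) and Lmf2 (0.971), and for Rgs10 Mdp1 (0.910), Spg21 (0.903) and Gpx8 (0.898). Among the members themselves Rgs1 and Rgs16 had r = 0.997, Rgs1 and Rgs2 0.976, and Rgs14 had -0.973 with Rgs16.

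Several of these genes lie side by side on mouse chromosome 1 (GRCm38, GENCODE M21). Rgs2 spans chr1:143999338-144004161, Rgs1 chr1:144242296-144249242 and Rgs18 chr1:144752683-144775435, all on the minus strand. They are consecutive among the genes of the table, 238134 and 503440 bases apart. Rgs2 and Rgs1 rose with peptide, whereas Rgs18 had 7.09, 10.8 and 10.1 FPKM in unstimulated CTL and 0.83, 1.79 and 1.76 with TCR, without overlap. Rgs18 fell by 2.65 on the log2 scale (SE 0.31, limma adjusted p = 2.15e-06), to about 16 to 36 fragments per TCR sample at the estimated depths. Rgs16 (chr1:153740349-153745468, plus strand) lies 40025 bases beyond Rgs8, which had 1.76, 1.90 and 1.67 FPKM without peptide and 2.81, 2.85 and 3.06 with it, a difference inside 2-fold (log2 0.68, SE 0.12, limma adjusted p = 0.000136). Rgs14 (chr13:55369732-55384687, plus strand) lies 6948 bases from Lman2, whose level did not change clearly with peptide (log2 0.07, limma adjusted p = 0.387). On its other side it lies 60384 bases from Grk6, a kinase that phosphorylates active receptors. Grk6 also fell with peptide, from 66.9 ± 2.15 to 28.5 ± 0.83 FPKM (log2 -1.23, SE 0.05, limma adjusted p = 1.34e-11). Rgs19 (chr2:181688419-181693977, minus strand) lies 347 bases from Tcea2, whose difference with peptide did not pass (log2 -0.35, limma adjusted p = 0.192). Its neighbour at higher coordinates, 143876 bases away, is Pcmtd2, which fell (log2 -1.05, limma adjusted p = 8.07e-07). The fall of Pcmtd2 was less than 2-fold without TCR replicate 3 (-0.97), with a pseudocount of 1 (-0.86) or with quantile normalisation (-0.95). It was not called in a limma test against a 2-fold change (adjusted p = 1). Of the 12 neighbours that are no member, Rgs18, Grk6 and Pcmtd2 were called lower and none higher with peptide, against 11.1% and 8.87% of all genes. Rgs3 (chr4:62559847-62704001) and Rgs10 (chr7:128373621-128418758) had no neighbour that was called.

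Of 14 other RGS genes listed, 5 were in the table, and 2 of these were called with peptide. Besides Rgs18, Rgs12 fell by 1.98 on the log2 scale (SE 0.16, limma adjusted p = 3.67e-08), from 3.77, 4.47 and 4.56 FPKM to 0.86, 1.10 and 1.06. Rgs12 belongs to the family of Rgs10 and Rgs14. With MEKi it had 2.18, 1.92 and 1.70 FPKM, above the TCR samples and inside 2-fold (log2 0.88, SE 0.16, limma adjusted p = 0.00064), though past it on a common FPKM sum (1.116). Rgs9 was at 0.07 to 0.30 FPKM in all samples, and its log2 difference with peptide was 0.93 (limma adjusted p = 0.00226). It was 1.10 without TCR replicate 2 and 1.46 with a pseudocount of 0.01, both past 2-fold. At the estimated depths these levels are about 3 to 4 fragments per unstimulated sample and 6 to 10 per TCR sample. That of Rgs11 was 0.21 (limma adjusted p = 0.288), and 138 of its exon bases overlap Arhgdig on the opposite strand. Rgs8 too was higher with MEKi than with TCR, without overlap and inside 2-fold (log2 0.45, limma adjusted p = 0.0091). The log2 differences of Rgs18 (-0.65), Rgs9 (-0.51) and Rgs11 (0.24) with MEKi relative to TCR did not pass. None of the 5 was called with PI3Kdi or MEKi relative to TCR (the smallest limma adjusted p was 0.629 with PI3Kdi and 0.00064 with MEKi).

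The proteins that RGS proteins act on and beside were read from 6 lists, of which 99 of 147 genes were in the table. With peptide 13 of the 99 were called higher and 28 lower, where 8.87% and 11.1% of all genes were, and their median log2 fold change was -0.47 against -0.01 for all genes. None of the 9 G alpha genes was called. Gnai2, the main Gi alpha gene of lymphocytes, had a mean of 297 FPKM without peptide and 161 with it, a difference inside 2-fold (log2 -0.89, SE 0.06, limma adjusted p = 2.98e-09) that passed 2-fold on a common FPKM sum (-1.30) and with quantile normalisation (-1.16). The log2 differences of Gnai3 (0.40) and Gna13 (0.26) passed on p inside 2-fold and turned to -0.01 and -0.15 on a common FPKM sum. Those of Gnaq (0.15, -0.26 on a common FPKM sum) and Gnas (-0.004) did not pass. With MEKi, Gna13 had a log2 difference of -0.45 and Gnai2 of 0.29 relative to TCR, both inside 2-fold (limma adjusted p = 2.93e-05 and 0.00111), and Gnai3 (-0.11), Gnaq (-0.16) and Gnas (0.003) did not pass.

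Of 9 G beta and gamma genes Gnb5 alone was called with peptide, rising from 2.27 to 9.10 FPKM in the mean (log2 1.94, SE 0.15, limma adjusted p = 3.39e-08). Gnb5 is the partner of the R7 family, to which Rgs9 and Rgs11 belong. It fell with MEKi relative to TCR (log2 -1.36, SE 0.15, limma adjusted p = 1.11e-05) and was lower with MEKi than with PI3Kdi (log2 -1.24). Among receptor kinases and arrestins 1 of 6 genes was called higher (Grk5, log2 1.44) and 1 lower (Grk6, above). Among chaperones, GoLoco proteins and RhoGEF 3 of 8 were called lower, among them Gpsm2 (log2 -2.16) and Gpsm3 (log2 -1.13), which share the GoLoco motif with Rgs14. The 8.87% higher and 11.1% lower of all genes apply to each of these lists. The 42 receptors were split, with 11 higher and 14 lower, from Adora2a (adenosine receptor, log2 2.90) and Gpr65 (proton-sensing receptor, log2 2.55) to Adora3 (log2 -2.62) and P2ry14 (UDP-glucose receptor, log2 -2.61). Of 25 effectors 10 were called lower and none higher with peptide, against 11.1% and 8.87% of all genes. These included Pik3cg (log2 -1.92), the G beta-gamma-driven PI3K, Prkacb (log2 -1.83), Plcb2 (log2 -1.56) and Adcy6 (log2 -1.33). At the estimated depths Adcy6 had about 20 to 32 fragments per TCR sample. A limma test against a 2-fold change did not call Adcy6 (adjusted p = 0.361) or Gpsm3 (adjusted p = 0.781) with peptide.

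The drugs were read over the same 99 genes. With PI3Kdi 2 were higher and 1 lower, against 0.499% and 1.38% of all genes, and the chemokine receptor Ccr2 (log2 1.04) and the cAMP phosphodiesterase Pde4d (log2 1.11) were the higher ones, of which Ccr2 was inside 2-fold without TCR replicate 1 (0.92). With MEKi 4 were higher and 3 lower, against 0.98% and 2.51% of all genes, among them Ccr4 (log2 1.95), P2ry14 (log2 1.53), Gpr183 (log2 1.07) and Adcy6 (log2 1.65) higher and Cxcr3 (log2 -1.04) and Gnb5 lower. Gpr183 lost its call without TCR replicate 1 (0.95), and Cxcr3 lost it without TCR replicate 3 (-0.68) or MEKi replicate 1 (-0.91). At the estimated depths Cxcr3 had about 13 to 21 fragments per MEKi sample. Between the drugs, Ccr4 (log2 2.24), P2ry14 (log2 1.64), Adcy6 (log2 1.35) and Pik3r6 (log2 1.23) were higher with MEKi and Ccr2 (log2 -1.45) and Cxcr6 (log2 -1.30) lower. With a pseudocount of 1 in place of 0.1, Adcy6 in its 3 comparisons (log2 -0.63, 0.83 and 0.72), Pik3r6 (0.91), Pde4d (0.86), Gpr183 (0.95) and Cxcr3 (-0.71) were inside 2-fold, and Cxcr3 was so on a common FPKM sum too (-0.80). A limma test against a 2-fold change called P2ry14 alone among the genes named here with MEKi relative to TCR, and neither of those with PI3Kdi. Between the drugs it called P2ry14 and Ccr2 but not Ccr4 (adjusted p = 0.0522), nor Adcy6, Pik3r6, Cxcr6 or Gnb5 (adjusted p = 1 for each). The median of the 99 was 0.14 with PI3Kdi and 0.09 with MEKi, against 0.02 and 0.01 for all genes. That of the 7 RGS genes was 0.01 and -0.56. A lower median with MEKi was not shared by the 5 other RGS genes, whose medians were -0.05 and 0.24.

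**Figure D4:**
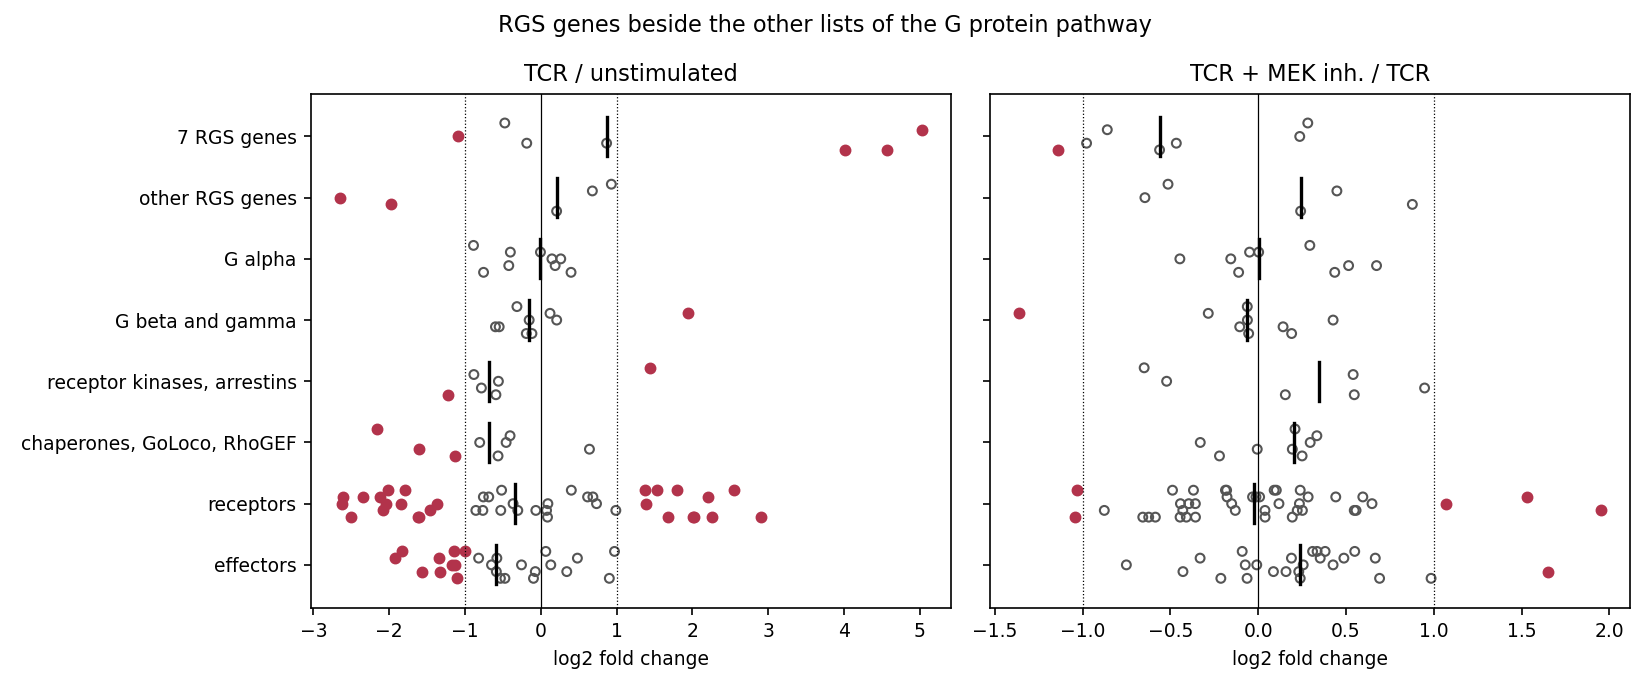
Log2 fold changes on the log2(FPKM + 0.1) scale (horizontal axes) of every listed gene in the table, by list (vertical axis), for TCR over unstimulated CTL on the left and MEKi over TCR on the right; filled points were called, vertical bars are list medians and dotted lines mark 2-fold. The 3 RGS genes at 4.01, 4.57 and 5.03 lie beyond every gene of the other lists on the left. On the right the 7 genes have a median of -0.56 and the 5 other RGS genes one of 0.24.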

How the data were processed

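The deposited table held FPKM values that the authors computed for 12 libraries and 11022 genes. Per the labels and the study's methods, stranded mRNA libraries from 300 ng of RNA were sequenced as paired 100-base reads, aligned to mm10 with STAR 2.4.2a and counted on RefSeq genes with Subread 1.5.0. The authors removed low genes, scaled by TMM in edgeR and divided by exon length. Strand use in counting is not given in the sources used here.

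Since counts were not used here, log2(FPKM + 0.1) was fitted with limma 3.58.1 in R 4.3.3, with 1 mean for each of 4 groups, all 12 samples sharing 1 spread estimate and an intensity trend. Benjamini-Hochberg correction covered all 11022 genes, and the script was tested on simulated data. Depth was estimated from the steps of low FPKM values in genes with 1 annotated transcript. The depth taken was the one at which these values lay closest to whole fragments. At that depth 53.8 to 67.3% of them came within 0.15 of a whole fragment. Chance gives 30% at a depth not fitted to the values, so part of the excess comes from the fit itself. Intervals are 95%.

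The members, gene lists and tests were chosen with earlier results of these data known. Text names all 7 members, their nearest table rows, the 3 most alike genes (1 is not reported here), every Gnai, Gnaq, Gna13 and Gnas row, and up to 4 called genes per list and comparison with a mean of at least 1 FPKM. Same-numbered samples deviated together (r of 0.122 to 0.451 over 3 pairs each) between the stimulated groups, though no label ties a number to a mouse. They did so in every pair of MEKi and unstimulated samples too, but not in every pair of unstimulated with TCR or PI3Kdi samples (lowest r -0.062). A fit with the replicate number as a block is among the 22 alternatives.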

Additional observations from a re-analysis of the deposited data

Results flagged for a closer look

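Rgs2 was marked because the drugs moved it in opposite directions relative to the same TCR samples. The direct comparison of MEKi with PI3Kdi gave a log2 difference of -1.76 (limma adjusted p = 4.32e-07). The gene was marked on this same difference, so the p is no separate support. All 3 PI3Kdi samples lay above and all 3 MEKi samples below every TCR sample. The log2 difference ranged from -1.84 to -1.66 over 22 alternatives, and the call was kept in each. Many of these could not change the difference by their design. Among them are the replicate block, the fit without an intensity trend, and leaving out an unstimulated or TCR sample.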

How the results depend on the processing

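Of 924 values that the 22 alternatives gave for the 42 differences of the 7 RGS genes, 887 kept their direction and side of the threshold, 3 lost a call, 25 gained one and 9 changed sign. Part of the 887 was fixed in advance, since some alternatives keep a log2 difference as it is. Leaving out a sample of a group outside the comparison is one of these. The replicate block changed no call: RGS genes called stayed at 4 (TCR), 0 (PI3Kdi over TCR), 1 (MEKi over TCR), 1 (MEKi over PI3Kdi) and 3 and 3 (each drug over unstimulated). Without a fold threshold the last 5 became 3, 7, 6, 6 and 6, because that alternative asks for p alone. MEKi over TCR called 0 on a common FPKM sum or against a 2-fold null, and 1 to 2 leaving out 1 sample. Genes called in all, which were 2202, 207, 385, 341, 1608 and 1478 for TCR, PI3Kdi over TCR, MEKi over TCR, MEKi over PI3Kdi, PI3Kdi over unstimulated and MEKi over unstimulated, became 1405, 90, 201, 150, 979 and 873 with a pseudocount of 1, 1174, 27, 106, 64, 803 and 739 against a 2-fold null, and 7559, 2818, 4090, 3185, 6887 and 6571 without a fold threshold.

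A common FPKM sum moved the median of all genes to -0.41 (TCR), 0.19 (PI3Kdi over TCR), 0.26 (MEKi over TCR), -0.22 (PI3Kdi over unstimulated) and -0.15 (MEKi over unstimulated). There the signs turned for Gna13 (-0.15), Gnai3 (-0.0129), Gnaq (-0.26) and Rgs11 (-0.19) with TCR, for Rgs1 with PI3Kdi over TCR (0.0909, and 0.0832 with quantile normalisation), for Gnai3 (0.15, and 0.0159 with quantile normalisation) and Gnaq (0.10) with MEKi over TCR, and for Rgs14 between the drugs (0.0278). None of these was called on the deposited scale. The cause was not tested. Leaving out 1 sample turned only small values: Gnas with TCR (-0.024 to 0.0312) and with MEKi (-0.033 to 0.0222), Rgs10 (-0.0681 to 0.24) and Rgs19 (-0.0379 to 0.0673) with PI3Kdi over TCR, and Rgs10 with PI3Kdi over unstimulated (-0.25 to 0.0536). Unstimulated Rgs2 rests on about 17 to 35 fragments per sample, and Rgs10 has an SE of the same size (0.14). Rgs10 with MEKi rests on about 34 to 43 fragments per sample.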
